A study of Mus musculus with 38 samples.

Results

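The genes followed here encode the enzymes that oxidise pyruvate and run the tricarboxylic acid (TCA) cycle, together with the enzymes that feed the cycle or draw from it. The 32 genes were picked by symbol for these roles. All 32 were among the 11184 genes in the authors' expression table, and all 32 passed the filter on low values, at least 1 RPKM in at least 4 libraries, which 9942 genes passed. RPKM is reads per kilobase of gene length, scaled to the size of the library, so levels can be set side by side between genes.

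The cells were primary bone marrow-derived macrophages of C57BL/6 mice. The study asked how lactate made during inflammatory (M1) activation relates to histone lactylation and gene expression. For RNA, 4 libraries in each group came from cells given 5 ng/ml LPS and 12 ng/ml IFNg, with lactic acid (LA) added 4 h later, and taken at 8, 16 and 24 h. Further groups of 4 came from cells given LPS and IFNg alone and taken at 4, 8, 16 and 24 h, and from unstimulated cells at 0 h. Times are read as hours after LPS and IFNg, and the labels give no dose of LA. For chromatin, 1 library each of H3K18la (lactylated lysine on histone H3) and H3K18ac (the acetylated form) came from 24 h LPS and IFNg cells (M1) and from unstimulated cells (M0). The labels do not say whether replicates are separate cultures or mice, so p-values measure only the spread between these libraries.

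Pyruvate enters mitochondria and is turned into acetyl-CoA by the pyruvate dehydrogenase complex, which kinases switch off and phosphatases switch on. The cycle then oxidises the acetyl group, passes electrons to NAD and to ubiquinone, and supplies citrate, oxoglutarate, succinate and malate to other pathways. In mouse macrophages activated with LPS and IFNg the cycle is known to be interrupted around isocitrate dehydrogenase and succinate dehydrogenase, with build-up of citrate, itaconate and succinate.

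Each library held 60.6 to 103.9 M (mega) reads in the listed genes, and each member had 53 to 33938 reads in a library. These read counts were inferred from the RPKM values. All 12 macrophage markers were listed. Their summed level was 20100 to 22700 RPKM at 0 h, 16200 to 17500 at 4 h, 17100 to 19400 at 8 h, 26300 to 37600 at 16 h and 40000 to 52600 at 24 h, and with LA 12800 to 13500 at 8 h, 20400 to 24900 at 16 h and 42700 to 60600 at 24 h. Most of the sum was Lyz2, at a mean of 36900 RPKM at 24 h and 16500 RPKM at 0 h, while Csf1r averaged 148 RPKM at 24 h and 371 RPKM at 0 h. The 5 listed stromal markers of 6 summed to at most 3.37 RPKM, the 2 listed dendritic cell markers of 6 to at most 3.17 RPKM, and the 5 listed neutrophil markers of 9 to 21.0 to 130 RPKM, and 0 of 7 lymphocyte and 0 of 6 erythroid markers were listed. In bulk RNA, fewer cells of a type and less RNA per cell cannot be told apart. Only 19 of the 11184 listed genes had an FDR of 0.05 or more in the authors' deposited table, so the list holds almost only genes that passed the authors' own test, and the background shares below are shares of that list. Replicate 1 of LA at 24 h and replicate 4 at 24 h stood apart in their slope of level on gene length, at -0.220 (-0.139 to -0.066 in the other LA libraries at 24 h) and -0.211 (-0.066 to -0.001 in the others at 24 h).

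Fold changes are differences of mean log2(RPKM + 1), given with their standard error (SE) and a limma p adjusted over all 9942 genes by the Benjamini-Hochberg method, with 0.05 as the threshold. They follow the authors' scaling, under which the median gene hardly moved (0.00, -0.01, 0.02 and 0.02 at 4, 8, 16 and 24 h over 0 h). With the RPKM total of every library made equal instead, the all-gene medians became -0.53, -0.60, -0.65 and -0.78. Each member moves by its own amount under that scaling, and some rises larger than these shifts were lost too.

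Over the time course, members moved in both directions at every time. At 4 h over 0 h, 17 members were higher and 8 lower, where 42.5% of all tested genes were higher and 42.7% lower. At 8 h the counts were 12 higher and 13 lower (40.7% and 42.1% of all genes), at 16 h 15 and 10 (39.9% and 36.9%), and at 24 h 16 and 10 (39.9% and 37.3%). The median member changed by 0.20, 0.03, 0.09 and 0.12 at the 4 times. With the RPKM totals made equal, the split at 4 h was 5 higher and 23 lower and at 24 h 1 higher and 30 lower, while of all called genes 23.2% were higher at 4 h and 7.4% at 24 h, against 49.9% and 51.6% under the authors' scaling. The 4 times share the 0 h libraries, so they are not independent of each other.

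**Figure D1:**
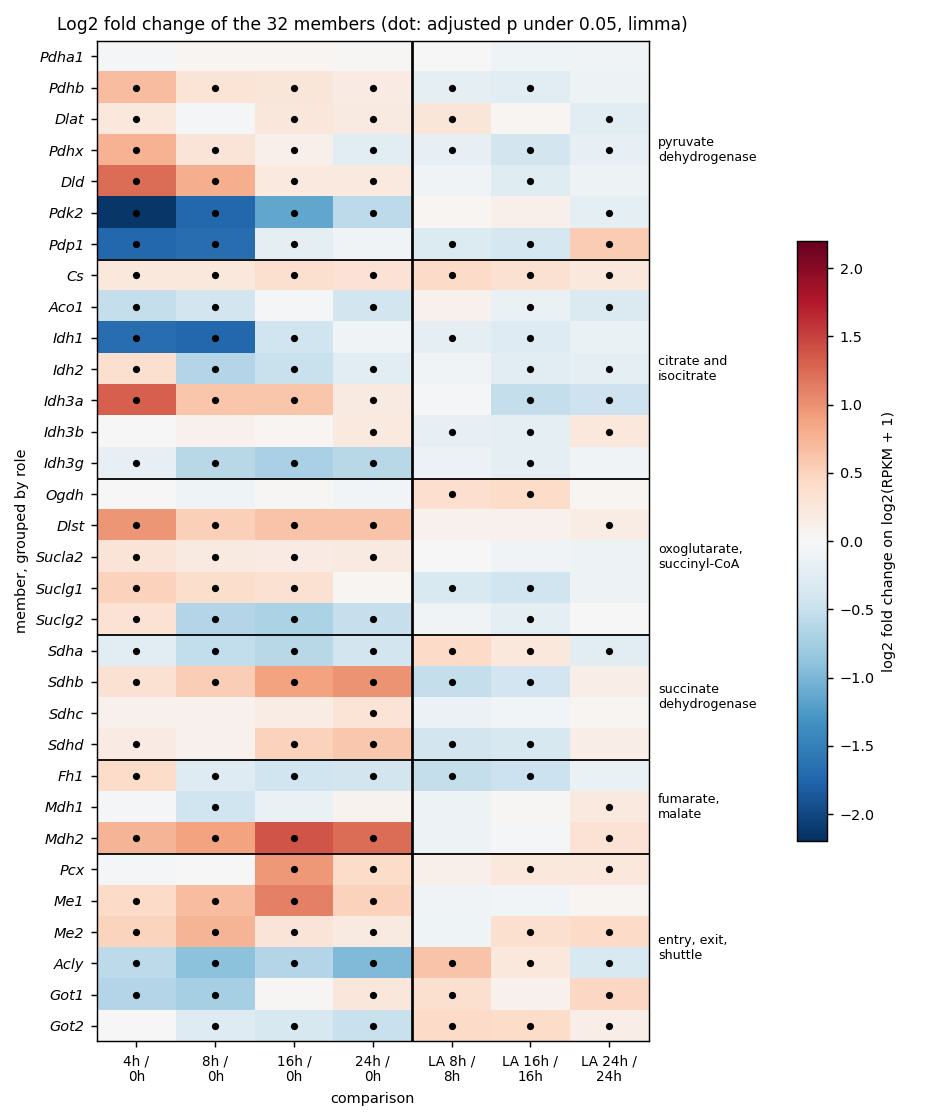
Log2 fold changes of the 32 members (down the page, by role) in 7 comparisons: LA over no LA at 8, 16 and 24 h, and 4, 8, 16 and 24 h over 0 h. Colour gives the difference in mean log2(RPKM + 1) under the authors' scaling, and it runs from -2.14 (Pdk2 at 4 h) to 1.38 (Mdh2 at 16 h); most of the smaller rises over 0 h turn negative with RPKM totals made equal.

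Of the time-course patterns, 10 members were called higher at all 4 times (Cs, Dld, Dlst, Idh3a, Mdh2, Me1, Me2, Pdhb, Sdhb and Sucla2) and 4 lower at all 4 (Acly, Idh3g, Pdk2 and Sdha). The share of all tested genes with such patterns was not counted, so these counts describe the members only. Without replicate 4 at 24 h, Pdhb was at 0.10 (adjusted p = 0.11) at that time. With the RPKM totals made equal Mdh2 alone of these 10 was still called higher at 24 h, at 0.27. Ogdh, the first subunit of the oxoglutarate dehydrogenase complex, and Pdha1, the catalytic subunit of pyruvate dehydrogenase, were called at no time.

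The largest change of all lay in the control of pyruvate dehydrogenase. Pdk2, a kinase that switches the complex off, had 0.291, 0.248, 0.248 and 0.186 RPKM at 4 h, against 4.21, 4.25, 4.97 and 4.49 RPKM at 0 h. Every library at 4 h was below every library at 0 h, and the mean was 18.4-fold lower, the widest range of any member. The fold change was -2.14 ± 0.06 (adjusted p = 1.1e-24) at 4 h, -1.73 ± 0.06 (adjusted p = 3.9e-22) at 8 h, -1.14 ± 0.06 (adjusted p = 5e-17) at 16 h and -0.58 ± 0.06 (adjusted p = 5.4e-10) at 24 h, on a scale that understates the change of so low a gene.

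Pdp1, a phosphatase subunit that switches the complex on, also fell. Its level was 1.45, 1.63, 1.5 and 1.67 RPKM at 4 h, against 7.29, 7.1, 7.64 and 7.64 RPKM at 0 h, with no overlap, a change of -1.72 ± 0.07 (adjusted p = 1.9e-20). By 24 h it was 7.81, 6.8, 6.86 and 6.66 RPKM, which overlapped the 0 h libraries at a change of -0.07 ± 0.07 (adjusted p = 0.37). Pdk2 and Pdp1 fell at 4 h under the 3 scalings, at -2.74 and -2.32 with RPKM totals made equal.

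Of the subunits of the complex, Pdha1 stayed within 15.5 to 18.2 RPKM in all 32 libraries. Dld, the dihydrolipoamide dehydrogenase that this complex shares with the oxoglutarate dehydrogenase complex, had 70.1, 79.5, 79.1 and 75.4 RPKM at 4 h, against 32.4, 32.6, 30.9 and 31.3 RPKM at 0 h. The groups did not overlap, and the change was 1.23 ± 0.06 (adjusted p = 4.5e-19) at 4 h and 0.22 ± 0.06 (adjusted p = 0.00094) at 24 h, the second turning to -0.73 with RPKM totals made equal. Pdhx, which anchors Dld in the complex, averaged 8.04 ± 0.115 RPKM at 4 h and 4.32 ± 0.3 RPKM at 0 h (SD, n = 4 each), a change of 0.77 ± 0.06 (adjusted p = 7.7e-14). At 24 h Pdhx was lower than at 0 h, at -0.25 ± 0.06 (adjusted p = 0.00022). Pdhb, the other subunit of the first enzyme, averaged 53.6 ± 2.75 RPKM at 4 h and 33.2 ± 1.42 RPKM at 0 h (SD, n = 4 each), a change of 0.68 ± 0.06 (adjusted p = 2.3e-11) that came to 0.06 with RPKM totals made equal. Dlat, the acetyltransferase core, stayed between 6.87 and 9.71 RPKM throughout.

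The 300 bases around the upstream start of Pdk2 (chr11:95041322-95041621, minus strand; the gene spans chr11:95026258-95041371) are shown because this start carried no H3K18la peak in M1 cells, against a peak of 3.88-fold enrichment in M0 cells. The H3K18ac peak there had 3.58-fold enrichment in M1 cells and 4.16-fold in M0 cells. Capitals mark CCAAT, read here on the other strand as ATTGG.

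Pdk2 promoter: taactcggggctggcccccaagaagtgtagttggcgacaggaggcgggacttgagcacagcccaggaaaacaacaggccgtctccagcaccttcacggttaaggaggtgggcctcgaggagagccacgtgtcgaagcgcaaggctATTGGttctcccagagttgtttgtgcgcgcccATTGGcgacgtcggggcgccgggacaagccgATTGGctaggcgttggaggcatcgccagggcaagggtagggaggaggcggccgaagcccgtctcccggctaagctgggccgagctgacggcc

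In the first steps of the cycle, Idh1 fell, Idh3a rose at 4 h and the others moved less. Cs, citrate synthase, was higher at all 4 times under the authors' scaling but lower with RPKM totals made equal. It averaged 89.1 ± 4.86 RPKM at 24 h and 71.4 ± 2.24 RPKM at 0 h (SD, n = 4 each), a change of 0.31 ± 0.05 (adjusted p = 2.6e-07) that turned to -0.65 under the equal totals. Aco1, the cytosolic aconitase that also serves as an iron sensor, was lower at 4 h, at -0.52 ± 0.06 (adjusted p = 3e-10).

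Idh1, the cytosolic and peroxisomal isocitrate dehydrogenase that makes NADPH, had 109, 102, 98.3 and 107 RPKM before stimulation. Its level was 28.9, 33.6, 33.4 and 32.3 RPKM at 4 h and 28.9, 32.2, 29.9 and 31.9 RPKM at 8 h. It was 76.2, 81.5, 79 and 70.6 RPKM at 16 h and 91.4, 112, 94.4 and 97.6 RPKM at 24 h. The 4 h, 8 h and 16 h libraries all lay below those at 0 h, and those at 24 h overlapped them. The change over 0 h was -1.67 ± 0.07 (adjusted p = 1.1e-20) at 4 h, -1.73 ± 0.07 (adjusted p = 5.6e-21) at 8 h, -0.43 ± 0.07 (adjusted p = 9.4e-07) at 16 h and -0.08 ± 0.07 (adjusted p = 0.3) at 24 h, the last not past the threshold. With RPKM totals made equal the 24 h value was -1.05, so whether Idh1 was back at its 0 h level depends on the scaling. The change from 4 h was 1.59 ± 0.07 (adjusted p = 4.8e-20) at 24 h.

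The promoter of Idh1 is shown because its start carried peaks of both marks in both states, with the widest gap in H3K18la value between M1 and M0 cells among the members. The gene spans chr1:65158616-65186479 and the sequence chr1:65186430-65186729, both on the minus strand. The H3K18la peak had 4.59-fold enrichment in M1 cells (chr1:65185942-65187128) and 9.35-fold in M0 cells (chr1:65185694-65187454). The H3K18ac peak had 4.88-fold enrichment in M1 cells and 6.31-fold in M0 cells. Capitals mark CCAAT.

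Idh1 promoter: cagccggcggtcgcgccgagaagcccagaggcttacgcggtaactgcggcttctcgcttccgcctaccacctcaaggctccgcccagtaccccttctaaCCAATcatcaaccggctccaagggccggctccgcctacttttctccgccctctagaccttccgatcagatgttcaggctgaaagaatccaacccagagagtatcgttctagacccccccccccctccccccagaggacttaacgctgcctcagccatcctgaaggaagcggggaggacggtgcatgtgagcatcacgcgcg

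The mitochondrial isocitrate dehydrogenases went different ways. Idh3a, the catalytic subunit of the NAD-dependent enzyme, had 28.1, 30.1, 28.5 and 29.8 RPKM at 4 h, against 13.5, 11.2, 9.93 and 9.83 RPKM at 0 h, with no overlap. Its change was 1.32 ± 0.08 (adjusted p = 7.2e-16) at 4 h and 0.61 ± 0.08 (adjusted p = 5.4e-08) at 8 h, the second at -0.06 with RPKM totals made equal. Idh3g, a regulatory subunit of that enzyme, was lower at all 4 times, at -0.72 ± 0.06 (adjusted p = 1.3e-11) at 16 h. Idh3b, the other regulatory subunit, was called at 24 h only of the 4 times, at 0.21, and that rise turned to -0.75 with equal totals. Idh2, the NADP-dependent mitochondrial enzyme, averaged 26.9 ± 1.88 RPKM at 0 h, 34.5 ± 1.29 at 4 h and 16.9 ± 0.923 at 8 h (SD, n = 4 each). It was called higher at 4 h (0.35, or -0.26 with equal totals) and lower at 8 h, at -0.64 ± 0.07 (adjusted p = 2.4e-10).

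**Figure D2:**
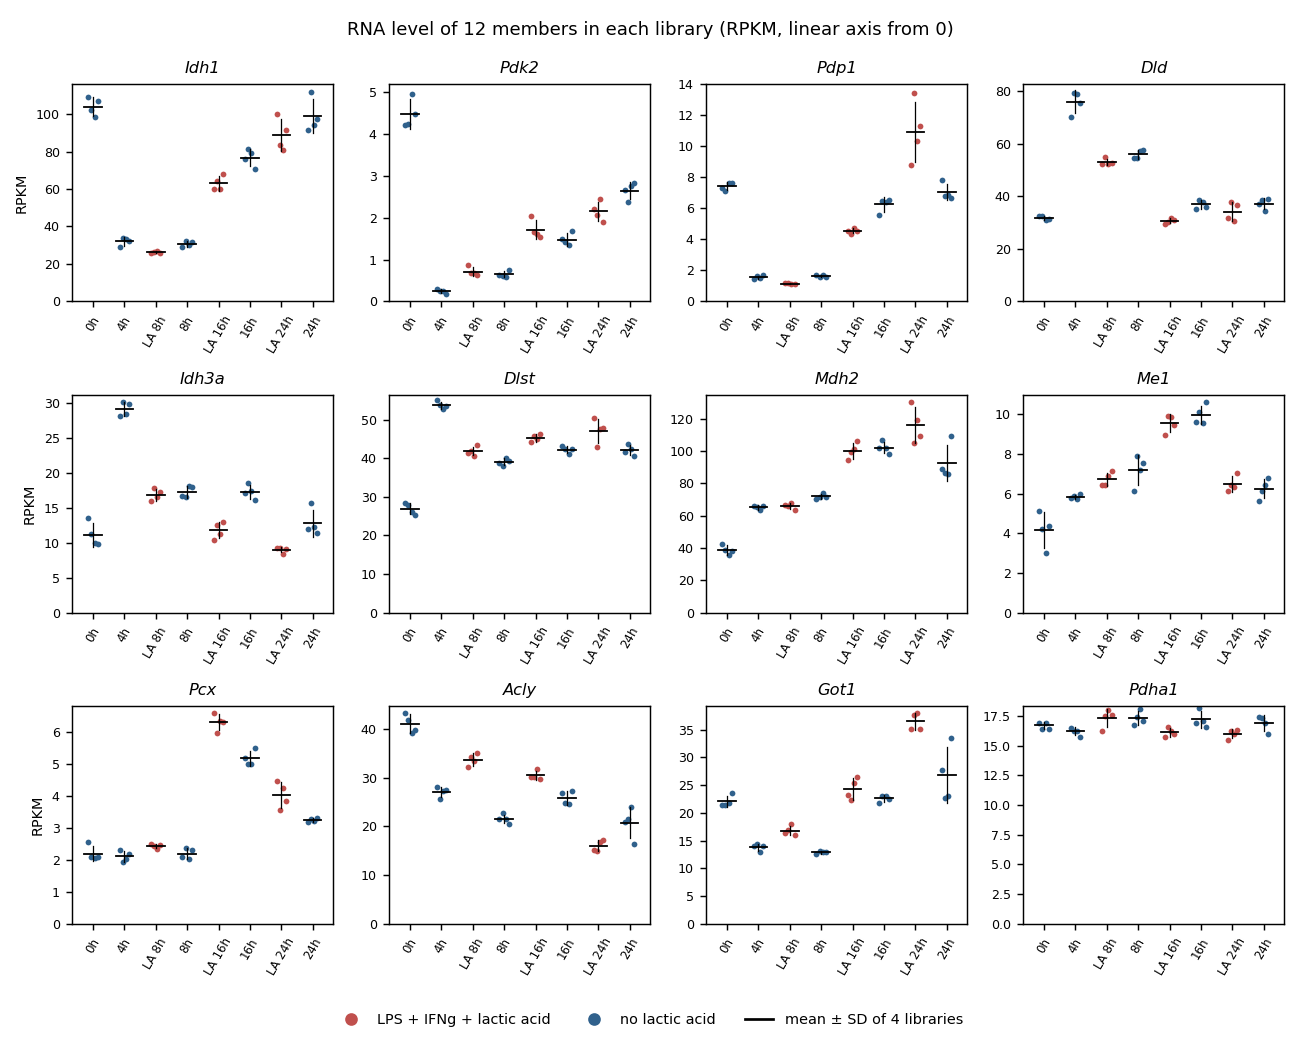
RPKM of 12 members in each of the 32 libraries (points) with group means (bars), in the order 0 h, 4 h, then LA beside no LA at 8, 16 and 24 h. Idh1, Pdk2 and Pdp1 are lowest at 4 and 8 h, Dld, Idh3a and Dlst are highest at 4 h, and Pdha1 stays between 15.5 and 18.2 RPKM.

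In the next steps, Dlst, the succinyltransferase core of the oxoglutarate dehydrogenase complex, had 55, 53.8, 52.8 and 53.5 RPKM at 4 h, against 28.3, 28, 26.1 and 25.4 RPKM at 0 h. The groups did not overlap, the change was 0.97 ± 0.05 (adjusted p = 4.6e-19), and it held at 0.36 with RPKM totals made equal. The rise at 24 h, 0.63 ± 0.05 (adjusted p = 1.1e-13), did not, and turned to -0.32. The 2 beta subunits of succinyl-CoA ligase parted after 4 h. Suclg2, the GTP-specific one, averaged 2.79 ± 0.278 RPKM at 16 h and 5.08 ± 0.215 RPKM at 0 h (SD, n = 4 each), a change of -0.69 ± 0.07 (adjusted p = 1.1e-10), though at 4 h it was higher by 0.32 (-0.22 with equal totals). Sucla2, the ATP-specific one, was higher by 0.28, 0.20, 0.18 and 0.20 at the 4 times and lower at all 4 with equal totals, at -0.71 at 24 h. Without replicate 4 at 24 h the last rise was 0.11. Suclg1, the shared alpha subunit, peaked at 17.3 ± 0.855 RPKM at 4 h, against 12 ± 0.452 RPKM at 0 h (SD, n = 4 each).

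Succinate dehydrogenase, which is also complex II of the respiratory chain, showed opposite changes among its 4 subunits under the authors' scaling. Sdha, the flavoprotein subunit that oxidises succinate, had 33.1, 30.9, 31.9 and 34.4 RPKM at 16 h, against 49.2, 48.5, 50.3 and 52.5 RPKM at 0 h, with no overlap. Its change was -0.25 ± 0.05 (adjusted p = 7e-05) at 4 h, -0.54 ± 0.05 (adjusted p = 8e-11) at 8 h, -0.61 ± 0.05 (adjusted p = 1e-11) at 16 h and -0.41 ± 0.05 (adjusted p = 4.2e-08) at 24 h. Sdhb, the iron-sulfur subunit that takes electrons from Sdha, had 101, 102, 84.9 and 130 RPKM at 24 h, against 52.4, 52.2, 49.1 and 52.4 RPKM at 0 h. Those groups did not overlap, the change was 0.99 ± 0.09 (adjusted p = 5.7e-11), and it was 0.88 without replicate 4 at 24 h. With RPKM totals made equal Sdhb was at 0.02 and Sdha at -1.37 at 24 h, beside a median of -0.78 for all genes. Under that scaling the fall of Sdha held and the rise of Sdhb did not, while Sdhb stayed above Sdha in its change.

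The membrane anchors of the enzyme, Sdhc and Sdhd, were nearer to Sdhb. Sdhd averaged 193 ± 25 RPKM at 24 h and 126 ± 2.63 RPKM at 0 h (SD, n = 4 each), a change of 0.60 ± 0.08 (adjusted p = 2.1e-08) that turned to -0.37 with equal totals. Sdhc was 54.2, 53.4, 53.2 and 71.6 RPKM at 24 h, against 47.7, 47.1, 43.9 and 47.4 RPKM at 0 h. Its 24 h mean rests in part on replicate 4, and the change was 0.30 with that library, 0.20 without it and -0.66 with equal totals.

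**Figure D3:**
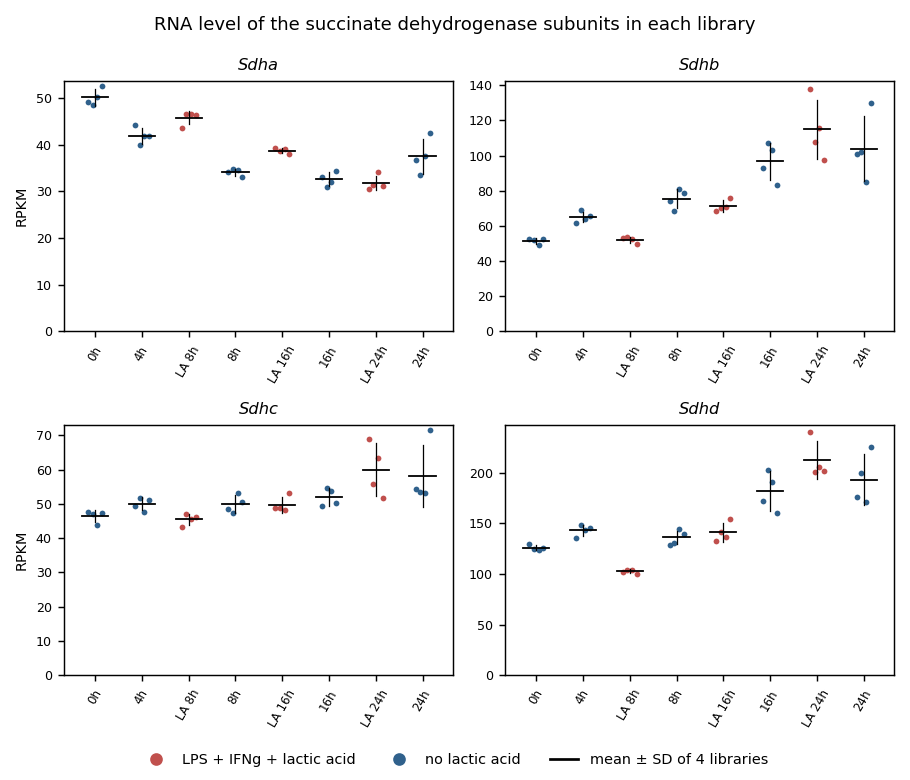
RPKM of the 4 succinate dehydrogenase subunits in each library (points) with group means (bars), LA beside no LA at 8, 16 and 24 h. Sdha averages 50.1 RPKM at 0 h and 37.5 at 24 h while Sdhb averages 51.5 and 104; the rise of Sdhb over 0 h is lost with RPKM totals made equal.

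The promoters of Sdha and Sdhb are set side by side because the 2 subunits changed in opposite directions over 0 h under the authors' scaling. With RPKM totals made equal Sdhb was at -0.16 at 8 h and 0.02 at 24 h. The Sdha sequence is chr13:74350191-74350490 on the minus strand (gene chr13:74322255-74350240) and that of Sdhb chr4:140961021-140961320 on the plus strand (gene chr4:140961271-140979198). Capitals mark ATTGG, which is CCAAT on the other strand, and, in Sdhb alone of these 2, CCGGAAG, a site form of the ETS factor GABP. At Sdha the H3K18la peak had 4.64-fold enrichment in M1 cells and 6.88-fold in M0 cells, and at Sdhb 6.56-fold and 7.53-fold.

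Sdha promoter: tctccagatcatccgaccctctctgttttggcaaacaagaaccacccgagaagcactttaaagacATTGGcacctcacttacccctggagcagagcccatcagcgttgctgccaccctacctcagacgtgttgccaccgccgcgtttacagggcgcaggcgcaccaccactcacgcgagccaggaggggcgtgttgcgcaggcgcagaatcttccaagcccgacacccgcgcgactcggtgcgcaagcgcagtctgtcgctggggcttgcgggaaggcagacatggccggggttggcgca

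Sdhb promoter: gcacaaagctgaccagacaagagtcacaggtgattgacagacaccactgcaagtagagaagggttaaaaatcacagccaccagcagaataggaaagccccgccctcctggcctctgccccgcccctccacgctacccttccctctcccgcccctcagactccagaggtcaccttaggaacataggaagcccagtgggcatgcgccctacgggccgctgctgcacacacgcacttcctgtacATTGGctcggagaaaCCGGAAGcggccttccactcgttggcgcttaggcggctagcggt

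Past succinate, Fh1, fumarase, averaged 19 ± 0.967 RPKM at 0 h, 25.5 ± 1.35 at 4 h and 14.2 ± 1.66 at 24 h (SD, n = 4 each). It was higher at 4 h, by 0.41 ± 0.09 (adjusted p = 0.00018), but lower at that time with equal totals (-0.20), and lower at 24 h, at -0.40 ± 0.09 (adjusted p = 0.00024). Mdh2, the mitochondrial malate dehydrogenase, had 88.8, 86.4, 85.5 and 109 RPKM at 24 h, against 42.7, 38.7, 35.3 and 38 RPKM at 0 h. Every 24 h library was above every 0 h library. The change was 0.74 ± 0.07 (adjusted p = 1e-11) at 4 h, 1.38 ± 0.07 (adjusted p = 3.2e-18) at 16 h and 1.23 ± 0.07 (adjusted p = 7.8e-17) at 24 h, and Mdh2 was the 1 member called higher at 8 h and at 24 h with RPKM totals made equal (0.19 and 0.27). Mdh1, the cytosolic isoform, was called at 8 h only of the 4 times, at -0.44 ± 0.08 (adjusted p = 2.1e-05).

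Among enzymes at the entries and exits, Acly, which cuts citrate into acetyl-CoA in the cytosol, had 20.8, 21.5, 24 and 16.3 RPKM at 24 h, against 43.3, 41.9, 39.2 and 39.8 RPKM at 0 h, with no overlap. Its change was -0.58 ± 0.07 (adjusted p = 6e-09) at 4 h, -0.90 ± 0.07 (adjusted p = 3.4e-13) at 8 h, -0.65 ± 0.07 (adjusted p = 1.1e-09) at 16 h and -0.97 ± 0.07 (adjusted p = 1.2e-13) at 24 h, and it was lower at all 4 times under each scaling. Pcx, pyruvate carboxylase, which makes oxaloacetate, had 5.19, 4.98, 5.01 and 5.49 RPKM at 16 h, against 2.56, 2.09, 2.05 and 2.07 RPKM at 0 h. The groups did not overlap, with a change of 0.95 ± 0.06 (adjusted p = 4.3e-16) at 16 h, 0.41 at 24 h and 0.00 at 8 h, of which the 24 h value turned to -0.31 with equal totals.

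Me1, the cytosolic malic enzyme that makes pyruvate and NADPH, also peaked at 16 h, at 9.96 ± 0.473 RPKM, against 4.17 ± 0.892 RPKM at 0 h (SD, n = 4 each), a change of 1.10 ± 0.08 (adjusted p = 1.8e-13). At 24 h it was higher by 0.50, or at -0.32 with equal totals. Me2, its mitochondrial counterpart, was highest at 8 h, with 25.1 ± 1.03 RPKM, against 14.5 ± 1.36 RPKM at 0 h (SD, n = 4 each) and a change of 0.75 ± 0.08 (adjusted p = 2.6e-10) that came to 0.08 (adjusted p = 0.43) with equal totals. The aspartate aminotransferases, which carry reducing power across the mitochondrial membrane with the malate dehydrogenases, parted. Got1, in the cytosol, was lower, at -0.64 ± 0.08 (adjusted p = 4.1e-09) at 4 h and -0.73 ± 0.08 (adjusted p = 2.2e-10) at 8 h, was at 0.03 at 16 h and was called higher at 24 h, by 0.25 (0.14 without replicate 4 at 24 h and -0.69 with equal totals). Got2, in mitochondria, was at 0.01 at 4 h and lower at the later times, at -0.29 at 8 h, -0.35 at 16 h and -0.49 ± 0.05 (adjusted p = 1.7e-09) at 24 h.

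**Figure D4:**
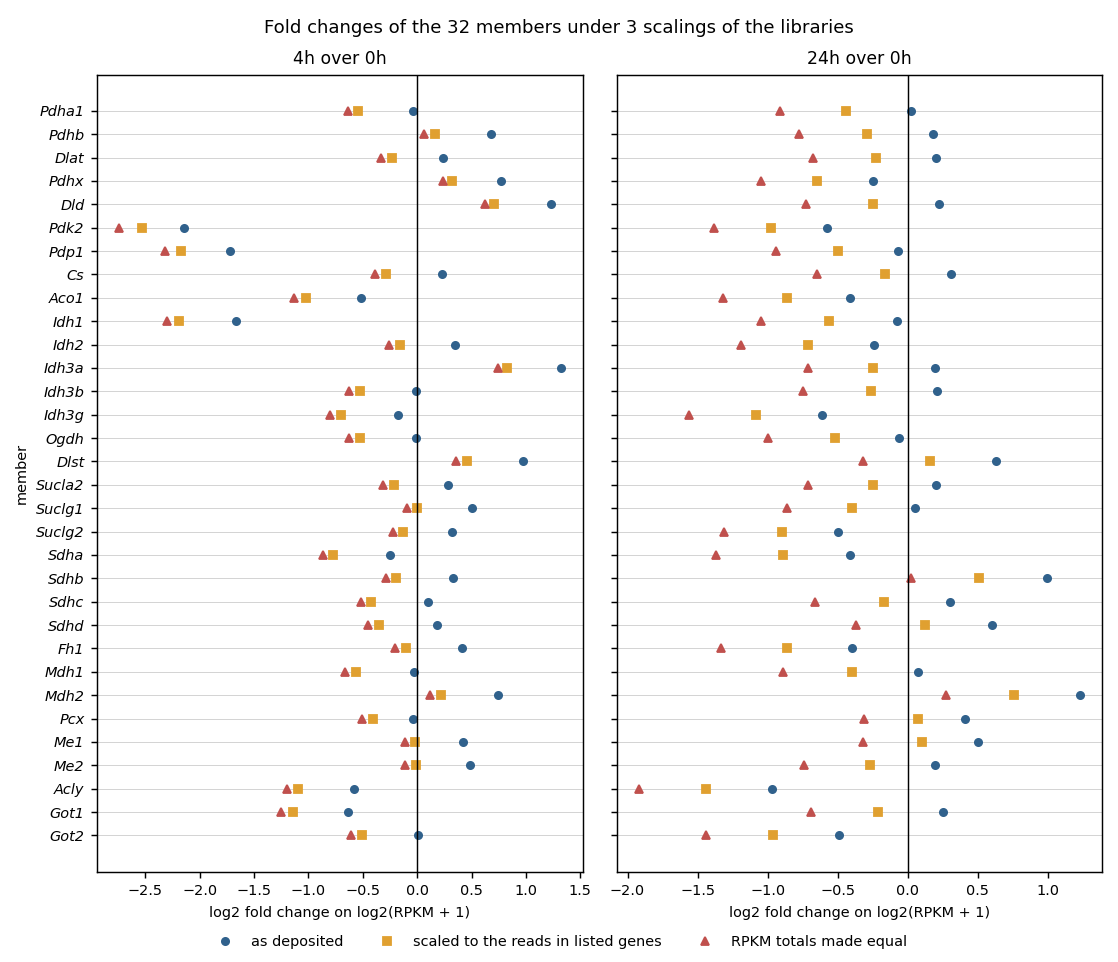
Log2 fold changes of the 32 members at 4 h and at 24 h over 0 h under 3 scalings: as deposited (circles), per read in listed genes (squares), and with RPKM totals made equal (triangles). The equal totals move the median of all genes to -0.53 at 4 h and -0.78 at 24 h, and 1 member (Mdh2) is then called higher at 24 h.

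The later times were also set against 4 h and against each other. At 24 h over 4 h, 11 members were higher and 14 lower (42.3% and 41.3% of all genes), with a median of -0.04, and with RPKM totals made equal the split was 7 and 22. Of all called genes 34.6% were then higher, against 50.6% under the authors' scaling. Pdp1, Idh1 and Pdk2 gave the largest rises, 1.65 ± 0.07 (adjusted p = 7.3e-20), 1.59 ± 0.07 (adjusted p = 4.8e-20) and 1.55 ± 0.06 (adjusted p = 7.2e-21), and Got1 followed at 0.89 ± 0.08 (adjusted p = 2.5e-12). Idh3a, Pdhx and Dld gave the largest falls, -1.13 ± 0.08 (adjusted p = 4.2e-14), -1.02 ± 0.06 (adjusted p = 6.8e-17) and -1.01 ± 0.06 (adjusted p = 9.4e-17). All 7 had moved the other way at 4 h over 0 h, a comparison that shares the 4 h libraries.

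In steps, added after the data had been seen, 8 h over 4 h gave 6 higher and 14 lower members (34.8% and 36.9% of all genes). The step to 16 h gave 16 higher and 3 lower (36.1% and 34.2%), and the step to 24 h gave 8 and 8 (24.1% and 23.3%). Under equal RPKM totals these splits were 2 and 18, 12 and 8, and 2 and 14, and with only the 2 groups in the fit the step to 24 h gave 2 and 7. Higher calls made up 41.8%, 41.9% and 21.4% of all called genes in the steps to 8, 16 and 24 h under equal totals. The largest step falls at 8 h were those of Idh2, -0.99 ± 0.07 (adjusted p = 1.5e-14), and Suclg2, -0.97 ± 0.07 (adjusted p = 3.7e-14). The largest step rises at 16 h were those of Pdp1, 1.45 ± 0.07 (adjusted p = 1e-17), and Idh1, 1.29 ± 0.07 (adjusted p = 5.3e-17). Dld, Me2 and Pdhx were the 3 that fell at 16 h, with -0.59, -0.47 and -0.15, the last at -0.11 (adjusted p = 0.09) without replicate 4 at 16 h. Idh1 rose further at 24 h over 16 h, by 0.36 ± 0.07 (adjusted p = 6.7e-05). Without replicate 3 or without replicate 4 of the 4 h group, 3 members were higher at 8 h over 4 h. Without replicate 1 or 4 at 16 h or replicate 4 at 24 h, 5 were higher at 24 h over 16 h. Shares of all tested genes were not counted in these fits or in the fit of only 2 groups.

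The LA comparisons set cells with LA against cells with LPS and IFNg alone at the same time. Changes were smaller than those over time, from -0.53 (Fh1 at 8 h) to 0.62 (Acly at 8 h), and no member changed by 2-fold. At 8 h, 7 members were higher and 9 lower with LA (32.1% and 36.0% of all genes), at 16 h 7 and 15 (30.2% and 31.0%), and at 24 h 10 and 8 (25.5% and 21.7%). The median member was at -0.08, -0.08 and -0.04, beside -0.02, -0.01 and 0.01 for all genes. With RPKM totals made equal, which moved the median of all genes to 0.17, 0.09 and -0.20, the splits became 18 and 3, 12 and 7, and 2 and 20, while higher calls made up 75.0%, 67.9% and 11.3% of called genes, against 47.2%, 49.3% and 54.0% under the authors' scaling. When only the 2 groups entered the fit, the LA 24 h split was 4 and 4. It was 12 and 8 without replicate 4 at 24 h, and 8 and 11 without replicate 1 of LA at 24 h. The share of all tested genes called was not counted in these fits, so the counts describe the members only.

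RNA features of the libraries moved with LA. The 12 listed mitochondrial transcripts of 13 summed to 2230 to 2700 RPKM with LA and 1250 to 1450 RPKM without at 8 h, to 2150 to 2610 and 1360 to 1730 RPKM at 16 h, and to 1100 to 2030 and 1640 to 1890 RPKM at 24 h. The slope of level on gene length was 0.130 to 0.163 with LA and -0.081 to -0.004 without at 8 h, 0.024 to 0.077 and -0.106 to 0.006 at 16 h, and -0.220 to -0.066 and -0.211 to -0.001 at 24 h. The part of the mitochondrial transcripts in the LA results was not tested, and values with the length trend removed are given beside the LA changes named here whose calls they end.

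Cs and Got2 were the 2 members called higher with LA at all 3 times, and Pdhx the 1 called lower at all 3. How many of all tested genes did so was not counted. Cs had 112, 113, 115 and 115 RPKM with LA at 8 h, against 83.6, 86.5, 86.6 and 81.6 RPKM without, and no library overlapped. Its change was 0.42 ± 0.05 (adjusted p = 5.1e-09) at 8 h, 0.34 ± 0.05 (adjusted p = 3.9e-07) at 16 h and 0.23 ± 0.05 (adjusted p = 0.00015) at 24 h, the last turning to -0.06 with equal totals. Got2 was higher by 0.42 ± 0.05 (adjusted p = 9.2e-08), 0.41 ± 0.05 (adjusted p = 2.6e-07) and 0.15 ± 0.05 (adjusted p = 0.022), and its last value turned to -0.13 with equal totals and had an adjusted p of 0.05 without replicate 1 of LA at 24 h. Pdhx was lower, at -0.18 ± 0.06 (adjusted p = 0.0074), -0.40 ± 0.06 (adjusted p = 7.8e-07) and -0.18 ± 0.06 (adjusted p = 0.0086), with the first at 0.04 under equal totals. Me1, Pdha1, Sdhc and Sucla2 were called at none of the 3 times.

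Acly, the citrate-cutting enzyme, gave the largest rise with LA. It had 32.1, 34.3, 33.4 and 35 RPKM with LA at 8 h, against 21.5, 22.7, 21.5 and 20.5 RPKM without, and 15.2, 14.9, 16.7 and 17.2 with LA at 24 h, against 20.8, 21.5, 24 and 16.3 without. With LA every 8 h library was above those without, and at 24 h the ranges overlapped, with the LA mean the lower. The change was 0.62 ± 0.07 (adjusted p = 1.2e-08) at 8 h, 0.23 ± 0.07 (adjusted p = 0.0063) at 16 h and -0.34 ± 0.07 (adjusted p = 0.00022) at 24 h, and the difference between the 24 h and the 8 h change was -0.96 ± 0.10 (adjusted p = 6.2e-09).

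Within succinate dehydrogenase, Sdha was higher and Sdhb lower with LA at 8 and 16 h. Sdha had 43.6, 46.5, 46.5 and 46.4 RPKM with LA at 8 h, against 34.1, 34.7, 34.5 and 33 RPKM without. Sdhb had 53.2, 53.6, 52.5 and 49.8 RPKM with LA at 8 h, against 74.5, 68.4, 80.8 and 78.5 RPKM without. Neither pair of groups overlapped. Sdha changed by 0.42 ± 0.05 (adjusted p = 1.2e-07) at 8 h, 0.24 ± 0.05 (adjusted p = 0.00027) at 16 h and -0.23 ± 0.05 (adjusted p = 0.00075) at 24 h, and kept these directions under the other 2 scalings (0.67, 0.38 and -0.51 with equal totals). Sdhb changed by -0.52 ± 0.09 (adjusted p = 1.7e-05) at 8 h, -0.42 ± 0.09 (adjusted p = 0.00027) at 16 h and 0.15 ± 0.09 (adjusted p = 0.2) at 24 h. With the length trend removed, the 8 h values were 0.40 for Sdha and -0.37 for Sdhb.

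Sdhd followed Sdhb, with -0.40 ± 0.08 (adjusted p = 3.2e-05) at 8 h and -0.36 ± 0.08 (adjusted p = 0.00014) at 16 h, but with the length trend removed its 8 h value was -0.09 and no longer past the threshold. At 24 h the LA change of Sdhb was 0.25 and that of Sdhd 0.22 without replicate 4 of the 24 h group, both then past the threshold. Fh1, the next enzyme, was lower with LA, at -0.53 ± 0.09 (adjusted p = 1.3e-05) at 8 h and -0.47 ± 0.09 (adjusted p = 7.4e-05) at 16 h.

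The remaining cycle enzymes split by time. At 8 h Ogdh was higher by 0.37 ± 0.07 (adjusted p = 2.9e-05), Got1 by 0.36 ± 0.08 (adjusted p = 0.00013) and Suclg1 lower, at -0.34 ± 0.07 (adjusted p = 7.2e-05), which came to -0.10 and was no longer past the threshold with equal totals. At 16 h, Idh3a had 10.4, 12.6, 11.3 and 12.9 RPKM with LA, against 17.1, 18.6, 17.4 and 16.1 RPKM without. The groups did not overlap, and the changes of Idh3a were -0.52 ± 0.08 (adjusted p = 3.6e-06) at 16 h and -0.46 ± 0.08 (adjusted p = 2.9e-05) at 24 h. Ogdh was higher by 0.40 ± 0.07 (adjusted p = 1.4e-05) at 16 h and Me2 by 0.36 ± 0.08 (adjusted p = 0.00022), while Suclg1 was lower, at -0.44 ± 0.07 (adjusted p = 3.6e-06).

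Idh1 was lower with LA at 8 h and 16 h, with -0.22 ± 0.07 (adjusted p = 0.0059) and -0.28 ± 0.07 (adjusted p = 0.00068), and was at -0.15 ± 0.07 (adjusted p = 0.064) at 24 h. The 8 h value was 0.03 with equal totals and -0.13 with the length trend removed, neither past the threshold, and the 16 h value was -0.14 (adjusted p = 0.12) with equal totals. The 24 h value came past the threshold, at -0.44 with equal totals, -0.16 with the length trend removed, -0.19 without replicate 1 at 24 h and -0.21 without replicate 1 of LA at 24 h. At 24 h Pdp1 gave the largest rise, with 8.78, 13.4, 10.3 and 11.3 RPKM with LA, against 7.81, 6.8, 6.86 and 6.66 RPKM without. The groups did not overlap, and the change was 0.56 ± 0.07 (adjusted p = 1.9e-07), after -0.30 ± 0.07 (adjusted p = 0.00041) at 8 h and -0.38 ± 0.07 (adjusted p = 3.7e-05) at 16 h. With equal totals the 8 h value was -0.16 (adjusted p = 0.18). Got1 rose at 24 h by 0.45 ± 0.08 (adjusted p = 1.5e-05) and Me2 by 0.42 ± 0.08 (adjusted p = 6.8e-05), with Got1 and Pdp1 the 2 members still called higher under equal totals (0.17 and 0.29).

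Whether the LA change differed between 24 h and 8 h was tested directly. The difference was positive for 9 members and negative for 9 (32.7% and 29.7% of all genes), with a median of 0.06. Pdp1 (0.86 ± 0.10 (adjusted p = 4.2e-08)) and Sdhb (0.67 ± 0.13 (adjusted p = 8e-05)) had the largest positive differences, and Acly and Sdha (-0.65 ± 0.08 (adjusted p = 5e-08)) the largest negative ones. Acly, Dlat, Idh3b, Pdp1 and Sdha were called in opposite directions at 8 h and 24 h under the authors' scaling, a pattern whose share of all genes was not counted. Of these calls, that of Idh3b at 24 h (0.23) was lost with equal totals (-0.05), per read in listed genes (0.02) and with only the 2 groups in the fit (adjusted p = 0.12). That of Sdha at 24 h was lost in this last fit (adjusted p = 0.086), and that of Pdp1 at 8 h with equal totals (-0.16). The difference for Ogdh, -0.31, was -0.17 (adjusted p = 0.073) with the length trend removed. With RPKM totals made equal, which moved the median of all genes to -0.38 in this comparison, 1 difference was positive and 25 were negative, Pdp1 at 0.45 being the positive one. Of all called genes 11.5% then had a positive difference, against 52.4% under the authors' scaling. Without replicate 4 at 24 h the counts were 11 and 9, and without replicate 1 of LA at 24 h 7 and 9. The shares of all tested genes without these libraries were not counted.

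Of the 43 other genes on a list of the pathway, 34 were listed and 32 tested. At 4 h, 10 rose and 20 fell (42.5% and 42.7% of all tested genes), with a median of -0.31. At 24 h 13 rose and 13 fell (39.9% and 37.3%), with a median of 0.00. With RPKM totals made equal the splits were 3 and 26 at 4 h and 4 and 28 at 24 h. Higher calls then made up 23.2% and 7.4% of all called genes. Acod1, which makes itaconate from cis-aconitate, averaged 3310 ± 72.6 RPKM at 4 h and 7.4 ± 1.18 RPKM at 0 h (SD, n = 4 each). Its change of 8.63 was larger than that of any member and was 8.07 with equal totals. The pyruvate carrier subunits Mpc1 and Mpc2 were higher at 24 h, by 0.54 and 0.94 (-0.37 and 0.14 with equal totals). Of the succinate dehydrogenase assembly factors, Sdhaf1 and Sdhaf2 were higher at 24 h by 0.97 and 0.75 (0.41 and -0.18 with equal totals). Sdhaf3 and Sdhaf4 were at 0.14 and -0.02 (-0.34 and -0.93 with equal totals). Of the other kinases of pyruvate dehydrogenase, Pdk3 was higher at 4 h, by 0.79, and Pdk1 lower, at -0.55, while Pdpr, the phosphatase regulator, was lower, at -1.21; equal totals kept these 3 directions (0.25, -1.15 and -1.75). With LA, 3 of the 32 were higher and 12 lower at 8 h (32.1% and 36.0% of all tested genes). The counts were 6 and 13 at 16 h (30.2% and 31.0%), and 9 and 7 at 24 h (25.5% and 21.7%). With equal totals the splits were 10 and 2, 9 and 6, and 3 and 14. Higher calls then made up 75.0%, 67.9% and 11.3% of all called genes. Acod1 was higher with LA at 16 h and 24 h, by 0.91 and 0.65 (1.05 and 0.36 with equal totals), and at -0.01 at 8 h.

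The 5 tested genes whose group means were most like those of Idh1, by Pearson correlation over the 8 groups on the log2 scale, were Hacl1 (0.9954), Tspan32 (0.9936), Dfna5 (0.9934), Pld4 (0.9929) and Trmt2b (0.9920). The 8 points share their libraries between genes, and the correlation is a description. Pld4 averaged 330, 177, 168, 270 and 325 RPKM at 0, 4, 8, 16 and 24 h.

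At the start sites, the deposited peak lists were read within 2000 bases of RefSeq starts, which were at hand for 28 members. With 1 library for each mark and state there is no test, and fold enrichment is the authors' value. An H3K18la peak lay at 23 members in M1 cells, against 27 in M0 cells, where 77.6% and 93.2% of 7823 tested genes had one. An H3K18ac peak lay at 26 members in M1 cells, against 28 in M0 cells, where 93.1% and 95.0% of the genes had one. The members without an H3K18la peak in M1 cells were Pcx, Pdha1, Pdhb, Pdk2 and Suclg2. Pcx and Suclg2 also lacked the H3K18ac peak in M1 cells, and Pcx the H3K18la peak in M0 cells.

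The median H3K18la enrichment at the members was 4.47 in M1 cells, against 6.18 in M0 cells, beside 4.79 and 7.01 over all genes with a peak. For H3K18ac it was 4.89 in M1 cells and 4.93 in M0 cells, beside 4.92 and 5.26 over all genes. Of the 23 members with an H3K18la peak in both states, 22 had the lower value in M1 cells. The exception was Me1, with 5.69 in M1 cells and 3.39 in M0 cells. For H3K18ac 13 of 26 were lower in M1 cells. The share of all genes with the lower value in M1 cells was not counted for either mark. The medians over all genes were lower in M1 cells for both marks. The M1 and M0 H3K18la libraries had 21.0 and 21.8 M mouse reads, 141688 and 310066 spike-in reads, and 16139 and 21885 peaks. The deposited enrichments were not rescaled here to the spike-in, of which the M1 library had fewer reads, and the lists differ in length, so no change in the mark is read from them.

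**Figure D5:**
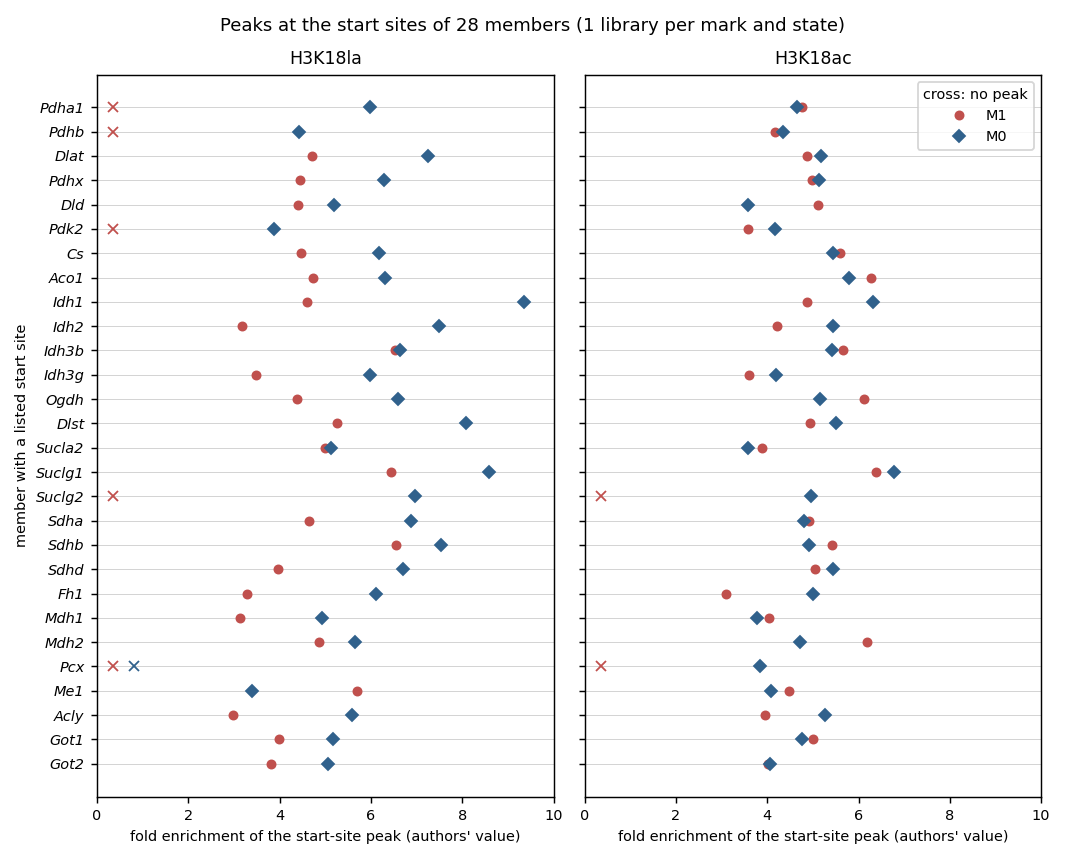
Fold enrichment of the deposited H3K18la and H3K18ac peaks at the starts of 28 members, in M1 and M0 cells, 1 library each. For H3K18la, 22 of 23 members with both values are lower in M1 cells, and Me1 is the exception, at 5.69 in M1 cells and 3.39 in M0 cells. The median over all genes with a peak is also lower in M1 cells (4.79, against 7.01 in M0 cells).

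The motifs CCAAT and CCGGAAG were searched on both strands in the 300 bases around each start, 250 before and 50 after. CCAAT was found at 18 of 28 members (64.3%), against 41.1% of all 27025 genes with a promoter sequence and 43.3% of the tested ones. CCGGAAG, the GABP form, was found at 5 members (17.9%), Idh3b, Idh3g, Dlst, Sdhb and Sdhd, against 9.93% of all genes and 22.4% of the tested ones. Neither motif contains the other, and a match describes the window only. Sequences are from RefSeq on GRCm38.p6.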

How the data were processed

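Per the labels' protocols, RNA was sequenced as stranded mRNA libraries and chromatin after a micrococcal nuclease digest. The authors deposited RPKM per gene, with their own log2 fold changes and an FDR (adjusted p-value); the deposited log2 values were not used in the tests. Per the submitters' processing notes, the tools include HISAT2 2.1.0, featureCounts 1.5.0-p1, Bowtie2 2.2.6 and MACS2 2.2.1, and the builds mm10 and GRCm38, with no role stated. The authors' peak lists give a fold enrichment (a ratio) and a −log10 q per peak, and the deposited spike-in table gives read counts per chromatin library. Gene lengths and library sizes were inferred by choosing values that made the reads behind the RPKM whole, and depth was found from them. Reads within 0.05 of a whole number then came out for 100.0% of values. Since the lengths and sizes were chosen for this, setting it against the 10.0% of random values is no test of them.

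Here, log2(RPKM + 1) of all 32 libraries was fitted with limma 3.58.1 in R 4.3.3 (trended, 8 group means, 24 residual degrees of freedom), after a minimum of 1 RPKM in 4 libraries, and p was adjusted over 9942 genes, leaving 1242 out. The script was tested on simulated data. Among the 32 libraries no pair was identical. Groups came from the labels. Peaks were counted within 2000 bases of RefSeq starts (GRCm38.p6). The rule for printed changes was Idh1, Sdha and Acly always, and up to 6 higher and 6 lower called members with the largest change per comparison; changes of other members were chosen after their values were seen. The members and lists were chosen with earlier results of these data known.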

Additional observations from a re-analysis of the deposited data

Results flagged for a closer look

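In 14 of 256 sets of 4 libraries (a member in a group), 1 library lay far from the other 3; chance gives about 1 in 20. At 0 h these were Pdhb in replicate 3, at 31.0 RPKM, Sdhb in replicate 3, at 49.1, Sdhc in replicate 3, at 43.9, Pcx in replicate 1, at 2.56, and Got1 in replicate 4, at 23.5. Replicate 4 at 24 h gave Sucla2 at 16.2 RPKM (12.2 to 12.7 in the others), Sdhc at 71.6 (53.2 to 54.2), Mdh1 at 102 (71.9 to 75.7) and Mdh2 at 109 (85.5 to 88.8). The others were Pdp1 in replicate 1 at 16 h, at 5.56 RPKM, Sdha in LA 8 h replicate 1, at 43.6, Sdhc in LA 16 h replicate 4, at 53.1, Idh3a in LA 24 h replicate 3, at 8.43, and Sdhd in LA 24 h replicate 1, at 240 (201 to 205).

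The LA change differed between 24 h and 8 h in 18 members by the limma test of the difference. It was more positive at 24 h for Pdp1 (0.86), Sdhb (0.67), Sdhd (0.54), Me2 (0.51), Mdh2 (0.44), Idh3b (0.41), Fh1 (0.38), Mdh1 (0.32) and Suclg1 (0.23). It was more negative at 24 h for Acly (-0.96), Sdha (-0.65), Dlat (-0.49), Idh3a (-0.43), Aco1 (-0.41), Ogdh (-0.31), Pdk2 (-0.27), Got2 (-0.27) and Cs (-0.20). With the length trend removed, Ogdh was at -0.17 and Mdh1 at 0.20, and without replicate 1 of LA at 24 h Mdh1 was at 0.26 and Suclg1 at 0.17, none past the threshold. With RPKM totals made equal, 7 of the 9 positive differences turned negative, all but Pdp1 and Sdhb.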

How the results depend on the processing

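The 156 changes picked by the rule for printed changes had 2444 alternative values. The other printed changes are not counted among them. Of these values, 2340 kept their side of the threshold and, where either value was called, their direction. A further 80 kept direction only, 8 crossed into a call and 16 turned round. With RPKM totals made equal, 118 of the 156 stayed the same, 21 lost their call, 2 gained one and 15 turned round. A pseudocount of 0.1 and no filter on low values changed none of these calls. Scaling moved most: with RPKM totals made equal, the counts of higher and lower members were 5 and 23 at 4 h, 1 and 27 at 8 h, 4 and 26 at 16 h, 1 and 30 at 24 h over 0 h, 7 and 22 at 24 h over 4 h, 18 and 3, 12 and 7, and 2 and 20 with LA at 8, 16 and 24 h, and 1 and 25 for the LA difference. Higher calls then made up 23.2%, 18.2%, 10.6% and 7.4% of all called genes at 4, 8, 16 and 24 h over 0 h. In the steps, 2 members were higher at 8 h over 4 h, 8 lower at 16 h over 8 h, and 2 higher and 14 lower at 24 h over 16 h. Among the 156 changes, values turned under equal totals to -0.06 (Idh3a) and -0.16 (Sdhb) at 8 h and -0.15 (Dlst and Idh3a) at 16 h. At 24 h they turned to -0.32 (Dlst), -0.37 (Sdhd), -0.32 (Me1) and -0.31 (Pcx). With LA they turned to 0.03 (Idh1) at 8 h and -0.05 (Idh3b) at 24 h. For the LA difference they turned to -0.47 (Idh1), -0.01 (Sdhd), -0.01 (Me2), -0.10 (Mdh2) and -0.13 (Idh3b). Changes given above that are not among the 156 also turned, such as those of Cs and Dld at 24 h.

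Scaled to the reads in listed genes, an alternative chosen after seeing the data, the counts were 6 and 21 at 4 h, 4 and 24 at 8 h, 7 and 21 at 16 h, 4 and 26 at 24 h, 3 and 17 with LA at 24 h, 3 and 18 for the LA difference, where Idh1 turned to -0.23, and 3 higher at 24 h over 16 h. Of all called genes under that scaling, 26.9%, 25.7%, 25.6% and 20.4% were higher at 4, 8, 16 and 24 h over 0 h. The share was 18.3% with LA at 24 h, 26% for the LA difference and 33.1% at 24 h over 16 h. With only the groups compared in the fit, LA at 24 h gave 4 and 4, and 24 h over 16 h gave 2 higher. The cause was not tested.

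Leaving out 1 library gave 16 to 17 higher and 8 lower in every case at 4 h over 0 h, 12 and 13 at 8 h, 14 to 15 and 10 at 16 h, and 13 to 16 and 10 at 24 h. It gave 10 to 12 and 13 to 15 at 24 h over 4 h, 3 to 5 and 14 at 8 h over 4 h, 13 to 16 and 2 to 3 at 16 h over 8 h, and 5 to 8 and 7 to 9 at 24 h over 16 h. With LA it gave 7 and 8 to 10 at 8 h, and 7 to 8 and 12 to 15 at 16 h. At 24 h it gave 8 to 12 and 8 to 11, and for the difference 7 to 11 and 9. Shares of all tested genes were not counted for these fits, those with only the groups compared or the replicate block below.

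With the replicate number as a block, 24 h over 4 h gave 10 higher members, 8 h over 4 h gave 4 and 24 h over 16 h gave 6, and every other count equalled that without it; of 156 changes, 3 lost their call. In 0 of the 8 comparisons checked, those over 0 h, 24 h over 4 h and with LA at each time, did all 4 same-numbered pairs correlate above 0.1, so the numbers were not taken to pair the libraries. For peaks, a −log10 q of at least 10 left 4 members with an H3K18la peak in M1 cells and 22 in M0 cells. At that cutoff 8 and 8 members had an H3K18ac peak. The share of all tested genes at that cutoff was not counted, so these counts describe the members only. Each member had 53 or more reads in every library, the lowest being those of Pdk2 at 4 h (53 to 78 reads). Whether depth limited the RNA levels was not tested.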
